A study of Homo sapiens with 19 samples.

Results

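The TRE5GCLR elements are 255 designed DNA elements of a plasmid library that was assayed by QUASARR-seq, a reporter method that reads many plasmids at once, in the human leukaemia cell line K-562. They were chosen by name alone: TRE5GCLR, a 4-digit number, and the ending .fwd or .rev, out of 3422 element names in all deposited tables of the series. The name rule uses no measured value, but the members were chosen with earlier results of these data known. The 255 names carry 128 element numbers between 2 and 192, with 128 .fwd and 127 .rev forms, and 127 numbers occurred with both endings. The labels do not explain the letters GCLR, and fwd and rev are read here as the orientations of an element with the same number. The sequences and genome positions of the elements are not analysed here.

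A promoter is the DNA at which transcription of a gene starts, and an enhancer is DNA that raises transcription from a promoter elsewhere on the same molecule. Reporter assays measure either activity outside the chromosome, by placing an element on a plasmid and counting barcodes in the RNA that the plasmid gives, relative to the same barcodes in the plasmid DNA. Many regulatory elements can do both, and QUASARR-seq reads both from 1 plasmid. Each plasmid carries a barcode named paBC and a barcode named eaBC; the promoter read-out is RNA over DNA of the paBC, and the enhancer read-out is the same ratio of the eaBC. A minimal promoter is a short core promoter with little activity of its own, on which an enhancer can act.

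The TRE5GCLR elements were measured with 3 minimal promoters, named after MYC, which encodes a transcription factor that drives growth, GAPDH, which encodes an enzyme of glycolysis that nearly all cells use, and APOBEC3F, which encodes a deaminase that restricts retroviruses. Plasmids with pMYC, pGAPDH and pAPOBEC3F formed 1 pool, so the 3 tables of a read-out come from the same libraries and from the same cells. There were 8 libraries: RNA and DNA, for the paBC and for the eaBC, with 2 replicates each. Per the labels, 20 µg of plasmid went into each electroporation, a technical replicate pooled 5 electroporations, a biological replicate held 2 technical ones, and cells were collected after 6 h and divided between the RNA and the DNA preparation. Nothing in the labels tells if replicate numbers 1 and 2 stand for biological or for technical replicates, and all p-values therefore measure only the spread between these libraries. There is no untreated group, and plasmid DNA is the reference for every value.

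Of the 255 elements, 183 were listed under all 3 minimal promoters, 50 under 2 and 22 under 1. The tables of pMYC, pGAPDH and pAPOBEC3F listed 204, 250 and 217 of them, and the same elements in both read-outs. Under pGAPDH alone 19 elements were listed, and 5 of the 255 were not listed under it. TRE5GCLR0151.fwd under pGAPDH, in both read-outs, and TRE5GCLR0118.rev in the pMYC promoter read-out were listed without a test by the authors and were left out.

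The enhancer read-out had fewer reads than the promoter read-out of the same minimal promoter. The median TRE5GCLR element had 461.5 and 506 RNA reads in replicates 1 and 2 of the pMYC promoter read-out, against 105 and 103.5 in its enhancer read-out. Under pGAPDH these medians were 2272.5 and 2525 against 732.5 and 795, and under pAPOBEC3F they were 318 and 354 against 50 and 53. No element was at 0 reads in any library. The labels name no molecular identifiers, so reads are not known to be independent molecules. The DNA replicates differed only slightly beyond sampling noise, with a chi-square per degree of freedom of 1.137 for the promoter and 1.055 for the enhancer barcodes, against 2.35 and 1.276 for RNA, and all were kept as separate replicates.

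Values below are log2 ratios of RNA over DNA, computed for each replicate with 0.5 reads added, on the scale that the authors gave each table. At 0, an element has the same scaled value in RNA as in DNA, which need not be the same share of the reads. RNA/DNA ratios given below are ratios of these scaled values. An element was called higher or lower where limma, fitted over all elements of the table, gave an adjusted p under 0.05 (Benjamini-Hochberg, two-sided). In each fit, limma draws the variance of an element towards that of all elements with a similar mean. A small adjusted p therefore does not show that the element's own replicates lie close together. The zero point differs between tables, so each count is also given after centring on the median of all elements of the table, and values under different minimal promoters are set side by side on their own scales unless stated otherwise.

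In the promoter read-out the median TRE5GCLR element lay above 0 under each minimal promoter, on the zero point of each table. Under pMYC, 130 of 203 elements were higher and 28 were lower, where 51.6% and 27.6% of all 2561 elements were called. Centring gave 104 higher and 52 lower, against 42.6% and 40.3% of all elements. Their median was 0.50, against 0.24 over all elements, and the elements ranged from -1.55 to 7.25. Without DNA replicate 2 of this read-out, 17 were lower.

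Under pAPOBEC3F the picture was much the same, with 141 of 217 elements higher and 31 lower, where 50.5% and 30.0% of all 2699 elements were called. Centring gave 121 and 63, against 45.1% and 42.2%. The median was 0.64 against 0.24 over all elements, and the range ran from -1.24 to 7.11. Without DNA replicate 1 or 2, 20 and 19 elements were lower. Under pGAPDH the values lay closer together: 128 of 249 elements were higher and 74 lower, where 36.5% and 47.1% of all 3044 elements were called, and centring gave 144 and 65, against 41.9% and 41.3%. The median there was 0.13 against -0.07, and the SD across TRE5GCLR elements was 0.68, against 1.32 under pMYC and 1.57 under pAPOBEC3F. The SD over all elements of each table was 0.67, 1.25 and 1.54 in the same order, so the narrower pGAPDH scale was shared by the whole table.

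TRE5GCLR0189.rev stood at the top of the group in all 3 promoter tables. Under pMYC its log2 ratio was 7.38 and 7.13 in replicates 1 and 2, a mean of 7.25 ± 0.17 (SD, n = 2) and an RNA/DNA ratio of 153, the highest of all 2561 elements (limma, adjusted p = 2.7e-19). Under pAPOBEC3F it read 7.31 and 6.91, again the highest of the table, with a mean of 7.11 ± 0.28 (SD, n = 2) (limma, adjusted p = 2.4e-11). Under pGAPDH it read 4.46 and 4.50, the third of 3044, with a mean of 4.48 ± 0.03 (SD, n = 2) (limma, adjusted p = 1.1e-28). The replicates of each table lay far closer to each other than to 0. Its DNA reads, 180 and 219 under pMYC and 78 and 102 under pAPOBEC3F, were below the median of the group, and its RNA reads under pMYC were 7752 and 8691.

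TRE5GCLR0170.fwd came next in each table. It read 5.05 and 4.96 under pMYC, 2.42 and 2.25 under pGAPDH and 5.51 and 5.38 under pAPOBEC3F. These are RNA/DNA ratios of 32.1, 5.05 and 43.4, with adjusted p of 7.2e-20, 3.2e-22 and 2.02e-12 in limma. The element lay at the percentiles 99.8, 99.8 and 99.6 of all elements of these tables. The form with the other ending, TRE5GCLR0170.rev, was also high, at 3.83 and 3.70 under pMYC, 1.66 and 1.57 under pGAPDH and 4.92 and 4.65 under pAPOBEC3F.

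Other strong promoter elements were measured under fewer minimal promoters. TRE5GCLR0047.rev, listed under pMYC alone, read 4.65 and 4.49 there (limma, adjusted p = 2.2e-18). TRE5GCLR0129.rev, also listed under pMYC alone, read 4.29 and 4.40 (limma, adjusted p = 2.7e-17). TRE5GCLR0051.rev was listed under the other two and read 1.93 and 1.95 under pGAPDH and 4.91 and 4.97 under pAPOBEC3F. The replicates of these 3 elements lay close together and far above 0. TRE5GCLR0164.fwd, listed under pGAPDH alone, read 1.97 and 1.67, with 111 and 124 DNA reads, and had a wider gap between its replicates. TRE5GCLR0113.fwd was high under all 3, at 4.02 and 4.04 under pMYC, 1.67 and 1.64 under pGAPDH and 4.58 and 4.51 under pAPOBEC3F. TRE5GCLR0110.fwd was close to it, at 3.98 and 3.90 under pMYC, 1.48 and 1.39 under pGAPDH and 4.62 and 4.47 under pAPOBEC3F.

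At the other end, TRE5GCLR0149.fwd gave the least RNA of the group under 2 minimal promoters. It read -1.58 and -1.52 under pMYC, a mean of -1.55 ± 0.04 (SD, n = 2) (limma, adjusted p = 1.3e-12). Under pGAPDH it read -2.29 and -2.23, the lowest of all 3044 elements, with a mean of -2.26 ± 0.04 (SD, n = 2) (limma, adjusted p = 6.1e-19). Its ratio there was 0.209, from 511 and 576 RNA reads and 1629 and 1601 DNA reads. TRE5GCLR0149.fwd was not listed under pAPOBEC3F.

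TRE5GCLR0022.rev was lower under each minimal promoter. It read -0.65 and -0.70 under pMYC, -1.25 and -1.33 under pGAPDH and -0.17 and -0.54 under pAPOBEC3F, with adjusted p of 4.4e-09, 1.3e-16 and 0.027 in limma. The pAPOBEC3F call was lost without DNA replicate 1 or 2 (limma, adjusted p = 0.110 and 0.192). TRE5GCLR0153.rev was also lower under all 3, at -0.47 and -0.53 under pMYC, -0.54 and -0.51 under pGAPDH and -1.27 and -1.22 under pAPOBEC3F, the lowest of the group there (limma, adjusted p = 0.00012). TRE5GCLR0032.rev was lower under pGAPDH, at -0.87 and -0.89, and under pAPOBEC3F, at -0.94 and -0.89, while its pMYC values of -1.08 and -0.27, from 8 and 9 RNA reads, did not pass the test. All 3 are .rev forms.

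Some of the low values rested on few reads. TRE5GCLR0122.rev read -0.90 and -1.53 under pAPOBEC3F from 15 and 13 RNA reads (limma, adjusted p = 0.0015), and without DNA replicate 2 its adjusted p in limma was 0.0747. TRE5GCLR0101.rev read -1.55 and -0.97 under pMYC from 62 and 103 RNA reads (limma, adjusted p = 2.5e-06). TRE5GCLR0126.rev, listed under pGAPDH alone, read -1.25 and -1.62 from 61 and 53 RNA reads (limma, adjusted p = 1.2e-06). The replicates of these 3 elements lay further apart than those of TRE5GCLR0149.fwd or TRE5GCLR0022.rev under pMYC and pGAPDH.

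In the enhancer read-out fewer TRE5GCLR elements passed the test than in the promoter read-out of the same minimal promoter, at a lower depth. Under pMYC, 88 of 204 TRE5GCLR elements were higher and 6 lower, where 39.6% and 7.38% of all 2561 elements were called, and centring gave 63 and 27, against 29.6% and 20.6%. The median was 0.26, against 0.19 over all elements. The count of lower elements was not stable: it fell without either DNA replicate and rose without either RNA replicate.

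Under pGAPDH, 76 of 249 elements were higher and 26 lower, where 23.5% and 19.2% of all 3043 elements were called, and centring gave 81 and 25, against 24.4% and 18.3%. The median was 0.07 against -0.01. Without RNA replicate 1, 42 were higher and 16 lower, and without RNA replicate 2, 14 were lower. Under pAPOBEC3F, 75 of 217 elements were higher and 9 lower, where 28.9% and 7.50% of all 2695 elements were called, and centring gave 68 and 16, against 25.5% and 12.2%. The median was 0.14 against 0.09. Without DNA replicate 1, 47 were higher. The 9 lower elements became 2 without either DNA replicate, and 24 and 27 without RNA replicate 1 and 2.

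TRE5GCLR0031.rev led the group as an enhancer under both minimal promoters that listed it. Under pAPOBEC3F it read 3.52 and 3.41, a mean of 3.47 ± 0.07 (SD, n = 2) and an RNA/DNA ratio of 11.1 (limma, adjusted p = 3.8e-12). Under pGAPDH it read 2.51 and 1.67, a mean of 2.09 ± 0.59 (SD, n = 2), the fifth of 3043 elements (limma, adjusted p = 3.6e-25). Both values were above every other TRE5GCLR element of their table, although the pGAPDH replicates differed by more than those of most elements, with 34 and 57 DNA reads. TRE5GCLR0031.fwd, listed under pGAPDH alone, read 1.48 and 1.54 and was the third of the group; it was picked out as the other form of the same number.

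TRE5GCLR0134 was listed under pGAPDH alone and was high there in both orientations. TRE5GCLR0134.fwd read 1.78 and 1.43 (limma, adjusted p = 1.3e-23) and TRE5GCLR0134.rev read 1.55 and 0.93 (limma, adjusted p = 1.7e-10). Under pGAPDH, TRE5GCLR0066.fwd followed at 1.07 and 1.28 and TRE5GCLR0013.rev at 1.00 and 0.95, each past the test with an adjusted p of 3.1e-21 and 1.9e-15 in limma. These 3 numbers, together with TRE5GCLR0031 and TRE5GCLR0027, gave the 7 highest enhancer values of the group under pGAPDH.

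Under pMYC the highest enhancer value was that of TRE5GCLR0047.rev, at 3.84 and 3.77, a mean of 3.81 ± 0.05 (SD, n = 2) and a ratio of 14.0 (limma, adjusted p = 1.4e-18). It was the fifth of all 2561 elements. TRE5GCLR0029.rev read 2.83 and 3.06 (limma, adjusted p = 2.4e-15) and TRE5GCLR0016.rev read 3.03 and 2.83, the latter from 24 and 29 DNA reads (limma, adjusted p = 5.2e-10). TRE5GCLR0170.fwd, second as a promoter, read 2.18 and 2.06, and TRE5GCLR0013.fwd read 2.15 and 2.08. For each of the 5 elements the gap between replicates was small beside the mean.

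Under pAPOBEC3F, TRE5GCLR0027.fwd read 2.99 and 3.07 in the enhancer read-out (limma, adjusted p = 5.5e-11). TRE5GCLR0029.rev read 3.03 and 2.81 (limma, adjusted p = 2.8e-08), close to its 2.83 and 3.06 under pMYC. TRE5GCLR0051.rev read 2.86 and 2.33 and TRE5GCLR0066.rev read 2.20 and 2.40. All 4 elements were higher in both replicates.

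Lower enhancer values were small. TRE5GCLR0072.rev was lower under pMYC, at -0.52 and -0.30 (limma, adjusted p = 0.0066), and under pGAPDH, at -0.48 and -0.57 (limma, adjusted p = 5.5e-06). Its pMYC call was lost without DNA replicate 1 or 2, with adjusted p of 0.117 and 0.0598 in limma. TRE5GCLR0105.rev was the lowest of the group under pGAPDH, at -0.61 and -0.52 (limma, adjusted p = 6.3e-05), and its values of 0.09 and -0.07 under pMYC and 0.20 and 0.00 under pAPOBEC3F did not pass the test. TRE5GCLR0083.rev was lower under pAPOBEC3F, at -0.62 and -0.85 (limma, adjusted p = 0.00101), and under pGAPDH, at -0.16 and -0.18 (limma, adjusted p = 0.0046), the latter call being lost without RNA replicate 2 (limma, adjusted p = 0.0861).

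Other low enhancer calls were lost when 1 library was left out, which leaves a single library in a group. TRE5GCLR0070.rev read -0.48 and -0.45 under pMYC (limma, adjusted p = 0.018) and lost its call without DNA replicate 1 or 2 (limma, adjusted p = 0.283 and 0.106). TRE5GCLR0148.rev read -0.30 and -0.28 under pMYC (limma, adjusted p = 0.018) and lost it in the same way (limma, adjusted p = 0.194 and 0.125). TRE5GCLR0082.fwd read -0.53 and -0.39 under pGAPDH (limma, adjusted p = 0.0031), which became 0.0712 without RNA replicate 1. TRE5GCLR0122.fwd read -0.40 and -0.62 under pAPOBEC3F (limma, adjusted p = 0.0084) and lost its call without DNA replicate 1 or 2 (limma, adjusted p = 0.0787 and 0.200). TRE5GCLR0148.rev was called lower as a promoter under all 3 minimal promoters, at -0.60 and -0.72 under pMYC, -0.63 and -0.59 under pGAPDH and -0.88 and -0.80 under pAPOBEC3F.

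The next comparison set the .fwd against the .rev form of the same element number, within 1 table and the same libraries. As promoters, more numbers were higher in the .fwd form. Under pMYC, 34 of 89 numbers were higher in .fwd and 18 in .rev, where 39.0% and 22.8% of all 1086 names with both forms were called. Under pGAPDH the counts were 48 and 33 of 121, where 40.5% and 33.2% of all 1429 were called, and under pAPOBEC3F they were 40 and 24 of 96, where 36.0% and 21.9% of all 1192 were called. The shares of TRE5GCLR numbers thus lay near those of all elements. Across the numbers, the log2 ratios of the 2 forms had a Pearson's r of 0.86 under pMYC, 0.64 under pGAPDH and 0.88 under pAPOBEC3F, given as descriptions, since both forms share libraries and depth.

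TRE5GCLR0189 differed in the same direction in all 3 promoter tables: .rev exceeded .fwd. Under pMYC, .fwd read 4.47 and 4.39 and .rev 7.38 and 7.13, a .fwd minus .rev difference of -2.82 ± 0.10 (SE) on the log2 scale (limma, adjusted p = 6.97e-10). Under pGAPDH, .fwd read 2.20 and 2.07 and .rev 4.46 and 4.50, a difference of -2.35 ± 0.08 (SE) (limma, adjusted p = 5.9e-20). Under pAPOBEC3F, .fwd read 5.21 and 5.10 and .rev 7.31 and 6.91, a difference of -1.96 ± 0.14 (SE) (limma, adjusted p = 1.4e-07). Both forms were far above 0 in each table, so the difference was one of size and not of sign.

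TRE5GCLR0022 differed the other way and crossed 0. Under pMYC its .fwd form read 1.57 and 1.44 and its .rev form -0.65 and -0.70, a difference of 2.18 ± 0.08 (SE) (limma, adjusted p = 7.2e-10). Under pAPOBEC3F .fwd read 1.57 and 1.65 and .rev -0.17 and -0.54, a difference of 1.97 ± 0.12 (SE) (limma, adjusted p = 4.2e-08). Under these 2 minimal promoters the .fwd form was called higher and the .rev form lower. Under pGAPDH both forms were lower, at -0.06 and -0.21 for .fwd and -1.25 and -1.33 for .rev, and the .fwd call was lost without DNA replicate 2 or RNA replicate 2 (limma, adjusted p = 0.156 and 0.0543).

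For TRE5GCLR0027 the .fwd form was the stronger one in both read-outs. As a promoter under pAPOBEC3F, .fwd read 4.82 and 4.63 and .rev 2.60 and 2.65, a difference of 2.10 ± 0.10 (SE) (limma, adjusted p = 3.2e-09). Under pGAPDH, .fwd read 1.72 and 1.85 and .rev -0.08 and 0.00, a difference of 1.82 ± 0.10 (SE) (limma, adjusted p = 1.9e-15). As an enhancer under pAPOBEC3F, .fwd read 2.99 and 3.07 and .rev 0.48 and 1.48, a difference of 2.05 ± 0.32 (SE) (limma, adjusted p = 0.00097). The replicates of the .rev form differed widely in the enhancer read-out, from 19 and 23 RNA reads, but neither reached the .fwd form. As an enhancer under pGAPDH, .fwd read 1.03 and 0.90 and .rev 0.28 and -0.11, a difference of 0.88 ± 0.18 (SE) (limma, adjusted p = 0.0014), which did not pass the test without RNA replicate 2 (limma, adjusted p = 0.0999).

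TRE5GCLR0029 had the stronger form in .rev. As a promoter under pMYC, .fwd read 2.08 and 2.32 and .rev 3.68 and 3.95, a difference of -1.62 ± 0.13 (SE) (limma, adjusted p = 8.7e-07). As an enhancer under pMYC the gap was wider, with .fwd at -0.08 and 0.29 and .rev at 2.83 and 3.06, a difference of -2.84 ± 0.27 (SE) (limma, adjusted p = 6.4e-06). TRE5GCLR0029.fwd thus was called higher as a promoter and was not called as an enhancer under pMYC, while TRE5GCLR0029.rev was called higher in both. Under pGAPDH the promoter forms differed by -1.26 ± 0.11 (SE) (limma, adjusted p = 5.7e-11), and the enhancer forms by -0.71 ± 0.20 (SE) (limma, adjusted p = 0.017). The pGAPDH enhancer difference was -0.41 without DNA replicate 2, and did not pass the test there or without either RNA replicate.

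Other promoter differences lay between forms that were both high, between 2 low forms, or between a form not called and one called higher or lower. TRE5GCLR0076 read 3.23 and 3.20 in .fwd and 1.49 and 1.34 in .rev under pMYC, a difference of 1.80 ± 0.15 (SE) (limma, adjusted p = 7.98e-07). TRE5GCLR0018 under pMYC read 3.04 and 2.94 in .fwd and 1.62 and 1.55 in .rev, a difference of 1.40 ± 0.08 (SE) (limma, adjusted p = 4.5e-08). TRE5GCLR0191 under pAPOBEC3F read 4.09 and 3.92 in .fwd and 2.21 and 2.11 in .rev, a difference of 1.84 ± 0.10 (SE) (limma, adjusted p = 1.04e-08). In these 3 numbers both forms were called higher. TRE5GCLR0028 under pAPOBEC3F read 2.30 and 2.18 in .fwd, which was called higher, and 0.08 and 0.21 in .rev, which did not pass the test. TRE5GCLR0149 under pGAPDH was lower in both forms, at -2.29 and -2.23 in .fwd and -0.40 and -0.43 in .rev, a difference of -1.85 ± 0.07 (SE) (limma, adjusted p = 2.6e-18). TRE5GCLR0126 under pGAPDH read -0.10 and 0.14 in .fwd, which did not pass the test, and -1.25 and -1.62 in .rev, a difference of 1.46 ± 0.18 (SE) (limma, adjusted p = 4.2e-08).

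Element numbers with 1 form called higher and the other lower were counted as well. With the zero point of each table, there were 3 in the pMYC promoter read-out (TRE5GCLR0022, TRE5GCLR0053 and TRE5GCLR0130), 19 in that of pGAPDH and 6 in that of pAPOBEC3F (TRE5GCLR0022, TRE5GCLR0053, TRE5GCLR0069, TRE5GCLR0070, TRE5GCLR0153 and TRE5GCLR0178), of which those other than TRE5GCLR0022, TRE5GCLR0070 and TRE5GCLR0153 were picked out after their values were seen. The shares were 3.37% of 89 numbers under pMYC, 15.7% of 121 under pGAPDH and 6.25% of 96 under pAPOBEC3F. Over all names with both forms they were 6.63%, 16.5% and 4.03%.

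In the enhancer read-out few numbers differed between forms. Under pMYC, 4 of 90 numbers were higher in .fwd and 7 in .rev, where 3.78% and 7.18% of all 1086 were called. Under pGAPDH, 8 of 121 were higher in .fwd and 16 in .rev, where 3.50% and 12.4% of all 1430 were called, and under pAPOBEC3F, 4 of 96 were higher in each form, where 3.37% and 5.05% of all 1188 were called. These totals changed when 1 library was left out, which leaves a single library in a group. The pMYC total of 11 became 4 without either DNA replicate and 20 without either RNA replicate. The pGAPDH total of 24 became 3 and 1 without RNA replicate 1 and 2 and 15 without DNA replicate 2. The pAPOBEC3F total of 8 became 1 and 2 without DNA replicate 1 and 2, and 31 and 33 without RNA replicate 1 and 2.

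The enhancer differences of TRE5GCLR0016 and TRE5GCLR0022 under pMYC, like that of TRE5GCLR0029, passed the test without each of the 4 libraries in turn. TRE5GCLR0016 read 1.55 and 1.12 in .fwd and 3.03 and 2.83 in .rev, a difference of -1.59 ± 0.26 (SE) (limma, adjusted p = 0.0011). TRE5GCLR0022 read 1.05 and 0.81 in .fwd and -0.23 and -0.13 in .rev, a difference of 1.11 ± 0.11 (SE) (limma, adjusted p = 6.7e-06), in the same direction as its promoter difference. Under pGAPDH, the differences of TRE5GCLR0125, -0.56 ± 0.18 (SE) (limma, adjusted p = 0.035), and TRE5GCLR0168, 0.52 ± 0.17 (SE) (limma, adjusted p = 0.039), did not pass the test with the replicate as a block (limma, adjusted p = 0.0524 and 0.0581). The TRE5GCLR0125 difference was -0.36 without DNA replicate 1 and the TRE5GCLR0168 difference was 0.34 without RNA replicate 2, and neither then passed the test.

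The enhancer differences between forms that remain by the naming rule each lost their call without a library. TRE5GCLR0072 under pMYC read 0.47 and 0.58 in .fwd and -0.52 and -0.30 in .rev, a difference of 0.94 ± 0.19 (SE) (limma, adjusted p = 0.0063), with adjusted p of 0.156 and 0.141 without DNA replicate 1 and 2. TRE5GCLR0167 under pMYC read -0.10 and -0.13 in .fwd and 0.56 and 0.81 in .rev, a difference of -0.80 ± 0.21 (SE) (limma, adjusted p = 0.021), with adjusted p of 0.324 and 0.272 without these libraries. Under pGAPDH the TRE5GCLR0072 difference was 0.46 ± 0.12 (SE) (limma, adjusted p = 0.0072), in the direction seen under pMYC, and it was lost without RNA replicate 1 or 2 (limma, adjusted p = 0.104 and 0.108).

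Under pAPOBEC3F, TRE5GCLR0040 read -0.27 and -0.35 in .fwd and 0.40 and 0.45 in .rev as an enhancer, a difference of -0.74 ± 0.17 (SE) (limma, adjusted p = 0.017). TRE5GCLR0158 read 0.11 and 0.05 in .fwd and 0.87 and 1.10 in .rev, a difference of -0.90 ± 0.24 (SE) (limma, adjusted p = 0.036). TRE5GCLR0179 read 0.08 and -0.03 in .fwd and 0.72 and 0.85 in .rev, a difference of -0.76 ± 0.19 (SE) (limma, adjusted p = 0.023). In these 3 numbers the .rev form was called higher and the .fwd form was not called, and each difference was lost without DNA replicate 1 (limma, adjusted p = 0.226, 0.226 and 0.273) or without DNA replicate 2 (limma, adjusted p = 0.411, 0.602 and 0.492). Their .rev calls were lost without DNA replicate 1 as well (limma, adjusted p = 0.106, 0.0861 and 0.0637), and those of TRE5GCLR0158.rev and TRE5GCLR0179.rev without DNA replicate 2 (limma, adjusted p = 0.269 and 0.0516). TRE5GCLR0022 differed by 0.98 ± 0.20 (SE) (limma, adjusted p = 0.0059), with .fwd at 1.00 and 0.96 and .rev at -0.28 and 0.29, and lost its call without DNA replicate 1 (limma, adjusted p = 0.300).

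Elements listed under 2 minimal promoters were then compared between them. Each library's values were first centred on the median of the elements that both tables list, so a difference is relative to the median shared element. For the promoter read-out, the uncentred minus the centred difference was -0.54 for pGAPDH against pMYC and -0.67 for pGAPDH against pAPOBEC3F. For pAPOBEC3F against pMYC it was 0.06. Centring thus raised pGAPDH against both others and slightly lowered pAPOBEC3F against pMYC. The tables of a read-out share their libraries, so their total reads show a level that the separate scaling removes. In promoter replicate 1, pGAPDH had 9080385 RNA and 5516308 DNA reads. Under pMYC these were 2116336 and 3802678, and under pAPOBEC3F 1679872 and 3428376. The differences below thus compare the standing of an element within each table. They do not show which minimal promoter gave more RNA.

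Between pGAPDH and pMYC, 80 of 197 TRE5GCLR elements were higher and 72 lower under pGAPDH in the promoter read-out, where 44.9% and 34.1% of all 2469 shared elements were called. Without centring the split was 14 and 124. Between pGAPDH and pAPOBEC3F, 91 of 214 were higher and 98 lower under pGAPDH, where 49.0% and 38.3% of all 2599 were called, and the split without centring was 30 and 138. Between pAPOBEC3F and pMYC, 55 of 184 were higher and 30 lower under pAPOBEC3F, where 29.7% and 14.3% of all 2279 were called. Without centring these were 66 and 19. The total of 85 in this last comparison was 53 and 44 without DNA replicate 1 and 2, and 129 without RNA replicate 2.

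The 3 elements with the lowest difference between pGAPDH and pMYC were among the strongest promoters of the group. TRE5GCLR0189.rev, with means of 4.48 under pGAPDH and 7.25 under pMYC, differed by -2.23 ± 0.09 (SE) after centring (limma, adjusted p = 1.3e-09). TRE5GCLR0170.fwd, at 2.34 and 5.00, differed by -2.12 ± 0.06 (SE) (limma, adjusted p = 1.4e-10). TRE5GCLR0110.fwd, at 1.43 and 3.94, differed by -1.96 ± 0.05 (SE) (limma, adjusted p = 1.1e-10). All 3 elements were still near the top of the pGAPDH table, at the percentiles 99.9, 99.8 and 97.3 and nearer to the median element on the log2 scale.

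The highest differences in favour of pGAPDH belonged to elements that were low under the other minimal promoter. TRE5GCLR0101.rev, at -0.12 and -0.15 under pGAPDH and -1.55 and -0.97 under pMYC, differed by 1.67 ± 0.18 (SE) (limma, adjusted p = 5.8e-06). TRE5GCLR0184.fwd, at 0.09 and 0.08 under pGAPDH and -0.40 and -0.52 under pMYC, differed by 1.09 ± 0.11 (SE) (limma, adjusted p = 2.5e-06). TRE5GCLR0153.rev, at -0.54 and -0.51 under pGAPDH and -1.27 and -1.22 under pAPOBEC3F, differed by 1.39 ± 0.12 (SE) (limma, adjusted p = 2.6e-06). In each of them the pGAPDH value was the higher one in both replicates before centring. TRE5GCLR0092.fwd, at 0.04 and 0.04 under pGAPDH and -0.23 and -0.68 under pMYC, differed by 1.03 ± 0.15 (SE) (limma, adjusted p = 5.4e-05). TRE5GCLR0122.rev, at -0.61 and -0.73 under pGAPDH and -0.90 and -1.53 under pAPOBEC3F, differed by 1.22 ± 0.20 (SE) (limma, adjusted p = 0.00027). TRE5GCLR0041.rev was called higher under pGAPDH, at 0.39 and 0.29, and was not called under pAPOBEC3F, at -0.23 and -0.14, with a difference of 1.20 ± 0.09 (SE) (limma, adjusted p = 8.1e-07).

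Between pGAPDH and pAPOBEC3F the lowest difference was that of TRE5GCLR0182.rev. It read 0.75 and 1.23 under pGAPDH and 4.60 and 4.52 under pAPOBEC3F, and differed by -2.90 ± 0.17 (SE) (limma, adjusted p = 1.03e-07). TRE5GCLR0170.rev, at 1.61 and 4.79, differed by -2.50 ± 0.08 (SE) (limma, adjusted p = 1.3e-09). Of pAPOBEC3F against pMYC, TRE5GCLR0104.rev read 3.30 and 3.25 under pAPOBEC3F and 1.92 and 2.17 under pMYC, a difference of 1.16 ± 0.12 (SE) (limma, adjusted p = 1.7e-05). TRE5GCLR0151.rev read 3.28 and 2.82 under pAPOBEC3F and 1.84 and 1.90 under pMYC, a difference of 1.12 ± 0.13 (SE) (limma, adjusted p = 3.9e-05). TRE5GCLR0170.rev was higher under pAPOBEC3F than under pMYC by 0.96 ± 0.09 (SE) (limma, adjusted p = 8.4e-06). TRE5GCLR0153.rev went the other way, with a difference of -0.80 ± 0.14 (SE) (limma, adjusted p = 0.00087). TRE5GCLR0167.rev differed by -0.87 (limma, adjusted p = 0.036), and by -0.81 without centring, which did not pass the test (limma, adjusted p = 0.0520). Its call was also lost without DNA replicate 1, DNA replicate 2 or RNA replicate 2, at -0.78, -0.95 and -0.40. TRE5GCLR0122.rev, at -0.90 and -1.53 under pAPOBEC3F and -0.10 and 0.31 under pMYC, differed by -1.38 ± 0.27 (SE) (limma, adjusted p = 0.0017), which was lost without DNA replicate 2 (limma, adjusted p = 0.0585).

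In the promoter read-out 28 elements were called higher under 1 minimal promoter and lower under another, on the zero point of each table. The 28 were among 233 TRE5GCLR elements tested under at least 2 minimal promoters, and the share was 14.2% over all 2873 such elements. TRE5GCLR0187.fwd read -0.28 and -0.11 under pGAPDH and 2.84 and 2.80 under pAPOBEC3F. TRE5GCLR0168.rev read -0.32 and -0.41 under pGAPDH and 2.59 and 2.59 under pAPOBEC3F. TRE5GCLR0066.fwd read -0.25 and -0.19 under pGAPDH, 1.91 and 1.90 under pMYC and 2.73 and 2.58 under pAPOBEC3F. All 3 lay below 0 in both pGAPDH replicates and well above 0 in every replicate under the other minimal promoters that list them. The lower call of TRE5GCLR0187.fwd under pGAPDH was lost without DNA replicate 1 or RNA replicate 1 (limma, adjusted p = 0.0722 and 0.0795). In percentiles of their table, TRE5GCLR0187.fwd went from 41.4 under pGAPDH to 87.4 under pAPOBEC3F, TRE5GCLR0168.rev from 30.5 to 84.7 and TRE5GCLR0066.fwd from 39.6 to 85.7.

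In the enhancer read-out the differences between minimal promoters were fewer. Between pGAPDH and pMYC, 34 of 198 elements were higher and 34 lower under pGAPDH, where 16.6% and 17.2% of all 2468 were called, and without centring 1 was higher and 63 lower. The total of 68 was 26 and 29 without DNA replicate 1 and 2. Between pGAPDH and pAPOBEC3F, 36 of 214 were higher and 28 lower under pGAPDH, where 12.3% and 12.9% of all 2595 were called, and without centring 7 were higher and 47 lower. The total of 64 was 10 and 11 without DNA replicate 1 and 2, and 97 without RNA replicate 2. Between pAPOBEC3F and pMYC, limma called 0 of 185 elements in either direction, where 0.0439% of all 2279 were higher and 0% lower under pAPOBEC3F. At an unadjusted p under 0.05 there were 27 of the 185, against 12.4% of all elements, and 16 and 23 were called without RNA replicate 1 and 2. The median standard error of this comparison was 0.21 on the log2 scale.

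TRE5GCLR0029.rev was the element with the lowest enhancer difference of pGAPDH against either other minimal promoter. It read 0.47 and 0.63 under pGAPDH, 2.83 and 3.06 under pMYC and 3.03 and 2.81 under pAPOBEC3F. Its centred differences were -2.08 ± 0.17 (SE) against pMYC (limma, adjusted p = 8.6e-06) and -2.13 ± 0.22 (SE) against pAPOBEC3F (limma, adjusted p = 0.00018). The pMYC and pAPOBEC3F values overlapped, and the pGAPDH values were below them in both replicates. TRE5GCLR0016.rev, at 0.84 and 0.65 under pGAPDH and 3.03 and 2.83 under pMYC, differed by -1.87 ± 0.20 (SE) (limma, adjusted p = 6.1e-05). TRE5GCLR0027.fwd, at 1.03 and 0.90 under pGAPDH and 2.99 and 3.07 under pAPOBEC3F, differed by -1.82 ± 0.16 (SE) (limma, adjusted p = 9.9e-05). TRE5GCLR0051.rev, at 1.01 and 0.46 under pGAPDH and 2.86 and 2.33 under pAPOBEC3F, differed by -1.62 ± 0.20 (SE) (limma, adjusted p = 0.00054). TRE5GCLR0170.fwd, at 0.47 and 0.35 under pGAPDH and 2.18 and 2.06 under pMYC, differed by -1.40 ± 0.11 (SE) (limma, adjusted p = 6.4e-06).

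The highest enhancer differences in favour of pGAPDH rested on few reads under the other minimal promoter. TRE5GCLR0043.rev read 0.09 and 0.00 under pGAPDH and -1.51 and -0.33 under pMYC, from 4 and 10 RNA reads, a difference of 1.28 ± 0.40 (SE) (limma, adjusted p = 0.032). TRE5GCLR0121.rev read 0.10 and -0.05 under pGAPDH and -0.94 and -1.99 under pAPOBEC3F, from 2 and 1 RNA reads, a difference of 1.74 ± 0.38 (SE) (limma, adjusted p = 0.011). Neither was called higher or lower in any of these enhancer tables. Both differences were lost without DNA replicate 1 (limma, adjusted p = 0.248 and 0.159) or 2 (limma, adjusted p = 0.232 and 0.184). The same held for TRE5GCLR0005.fwd and TRE5GCLR0049.fwd against pMYC and TRE5GCLR0123.rev against pAPOBEC3F, with differences of 0.84 ± 0.28 (SE), 0.83 ± 0.20 (SE) and 0.97 ± 0.23 (SE). Without centring these became 0.52, 0.51 and 0.73 and did not pass the test (limma, adjusted p = 0.195, 0.0718 and 0.0532). Nor did TRE5GCLR0043.rev, at 0.96 (limma, adjusted p = 0.0782), while TRE5GCLR0121.rev still passed. TRE5GCLR0083.rev, at -0.16 and -0.18 under pGAPDH and -0.62 and -0.85 under pAPOBEC3F, differed by 0.82 ± 0.10 (SE) (limma, adjusted p = 0.00061), lost without DNA replicate 2 (limma, adjusted p = 0.0572).

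In the enhancer read-out 1 element of 233 was called in opposite directions under different minimal promoters, against 1.57% of all 2870 elements tested under at least 2. TRE5GCLR0020.fwd read -0.08 and -0.32 under pGAPDH (limma, adjusted p = 0.012) and 0.38 and 0.47 under pAPOBEC3F (limma, adjusted p = 0.0302). As a promoter it was also lower under pGAPDH, at -0.16 and -0.18, and higher under pAPOBEC3F, at 2.17 and 2.24. The enhancer calls were lost without DNA replicate 2, under pGAPDH (limma, adjusted p = 0.0976) and under pAPOBEC3F (limma, adjusted p = 0.338). They were also lost under pGAPDH without RNA replicate 2 (limma, adjusted p = 0.353) and under pAPOBEC3F without DNA replicate 1 (limma, adjusted p = 0.191).

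Promoter and enhancer read-outs of the same element come from different barcodes and libraries and were compared by their calls and by percentile within each table, with no test of the difference. Under pMYC, 84 TRE5GCLR elements were higher as promoters and also as enhancers, which is 64.6% of the promoter calls and 95.5% of the enhancer calls. Under pGAPDH these were 62 elements, 48.4% and 81.6%, and under pAPOBEC3F 73 elements, 51.8% and 97.3%. An element that was higher as an enhancer was thus mostly also higher as a promoter, as was the case over all elements of the tables. There were 46, 66 and 68 TRE5GCLR elements that were higher as promoters only. Across elements, Pearson's r of the 2 read-outs was 0.81 under pMYC (n = 203), 0.50 under pGAPDH (n = 249) and 0.74 under pAPOBEC3F (n = 217). Over all elements of the tables r was 0.84, 0.62 and 0.76, and the shares that were higher in both were 71.4% and 93.1% under pMYC, 53% and 82.4% under pGAPDH and 54.8% and 95.4% under pAPOBEC3F. These r are descriptions across elements measured at different depths.

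TRE5GCLR0030.fwd was high as a promoter and not called higher as an enhancer under any minimal promoter. As a promoter it read 3.50 and 3.53 under pMYC, 1.45 and 1.37 under pGAPDH and 4.61 and 4.27 under pAPOBEC3F, all past the test. As an enhancer it read 0.09 and -0.17 under pMYC and 0.12 and -0.08 under pAPOBEC3F, neither past the test, and -0.35 and -0.42 under pGAPDH, where it was called lower (limma, adjusted p = 0.00011). Its percentile under pGAPDH was 97.1 as a promoter and 5.83 as an enhancer. TRE5GCLR0047.fwd under pAPOBEC3F had values of 3.09 and 2.93 as a promoter and -0.75 and -0.42 as an enhancer, the latter from 9 and 11 RNA reads and not past the test.

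TRE5GCLR0189.rev, the strongest promoter of the group, ranked lower as an enhancer. It read 1.64 and 1.43 in the enhancer read-out under pMYC, at the percentile 92.8 (limma, adjusted p = 7.9e-06). Under pGAPDH it read 0.23 and 0.11 and under pAPOBEC3F 0.91 and 0.87, and neither passed the test (limma, adjusted p = 0.12 and 0.069). The pAPOBEC3F values rest on 10 and 10 RNA reads. TRE5GCLR0047.rev under pMYC, in contrast, was high in both read-outs, at the percentiles 99.6 as a promoter and 99.8 as an enhancer.

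Other rank differences between the read-outs were those of elements with smaller promoter values. TRE5GCLR0027.rev under pMYC read 2.07 and 2.17 as a promoter and -0.56 and 0.50 as an enhancer, from 8 and 16 RNA reads. TRE5GCLR0085.rev under pMYC read 0.75 and 0.83 as a promoter and -0.55 and -0.03 as an enhancer, from 19 and 28 RNA reads. Neither enhancer value passed the test. TRE5GCLR0040.fwd under pAPOBEC3F read 1.74 and 1.53 as a promoter and -0.27 and -0.35 as an enhancer, which did not pass the test either. The reverse was seen for TRE5GCLR0005.rev under pMYC, at 0.12 and -0.14 as a promoter, not past the test, and 1.51 and 0.51 as an enhancer (limma, adjusted p = 0.0072). TRE5GCLR0005.rev was alike under pGAPDH, at -0.05 and 0.05 as a promoter, not past the test, and 0.54 and 0.56 as an enhancer (limma, adjusted p = 2.8e-05). TRE5GCLR0128.rev under pAPOBEC3F read -0.03 and 0.02 as a promoter, not past the test, and 0.45 and 0.31 as an enhancer (limma, adjusted p = 0.0045). The enhancer call of TRE5GCLR0005.rev under pMYC was lost without RNA replicate 1 (limma, adjusted p = 0.0818), and that of TRE5GCLR0128.rev without DNA replicate 1 (limma, adjusted p = 0.123).

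TRE5GCLR0066 showed the reverse order under pGAPDH. As a promoter it was lower there in both forms, at -0.25 and -0.19 for .fwd and -0.13 and -0.34 for .rev (limma, adjusted p = 0.0014 and 4.7e-05). As an enhancer under pGAPDH it was higher in both, at 1.07 and 1.28 for .fwd and 0.88 and 0.76 for .rev (limma, adjusted p = 3.1e-21 and 2.5e-23). Under pMYC both forms were higher in both read-outs, with promoter values of 1.91 and 1.90 for .fwd and 1.38 and 1.17 for .rev and enhancer values of 2.05 and 2.04 for .fwd and 1.96 and 1.88 for .rev. Under pAPOBEC3F the enhancer values were 1.90 and 1.72 for .fwd and 2.20 and 2.40 for .rev. As a promoter under pGAPDH the percentiles of .fwd and .rev were 39.6 and 38.6, below the median of the table. The enhancer calls were thus higher under all 3 minimal promoters in both forms, and the promoter call changed sign under pGAPDH.

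There were 12 elements that had opposite calls in the 2 read-outs under pGAPDH: 5 were higher as promoters and lower as enhancers, and 7 the reverse. The 12 were 4.82% of 249, against 3.22% of all elements with both read-outs. Under pAPOBEC3F there was 1 of 217, against 0.706% of all elements. This was TRE5GCLR0070.fwd, which read 0.40 and 0.51 as a promoter and -0.52 and -0.70 as an enhancer, from 33 and 34 RNA reads. Its enhancer call was lost without DNA replicate 1 or 2 (limma, adjusted p = 0.105 and 0.180). Under pMYC 0 of 203 elements had opposite limma calls, against 0.744% of all elements. Among the 12, TRE5GCLR0152.rev read -0.46 and -0.36 as a promoter and 0.31 and 0.53 as an enhancer, at the percentiles 27.7 and 89.9. TRE5GCLR0004.rev read -0.87 and -1.04 as a promoter and 0.19 and 0.07 as an enhancer, and its enhancer call (limma, adjusted p = 0.044) was lost without RNA replicate 1 or either DNA replicate (limma, adjusted p = 0.546, 0.0760 and 0.128). TRE5GCLR0165.rev was low as a promoter, at -1.03 and -1.07, and did not pass the test as an enhancer, at 0.07 and 0.18.

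Set beside the 3 element families of similar name in the same tables, the TRE5GCLR elements had a larger share in the top 10% of the promoter read-out. Under pMYC, 28 of 203 (13.8%) were in the top 10% of all elements, against 6.28% of TRE5GCCC, 4.51% of TRE5GCNC and 0% of TRE5NGCC elements. Under pAPOBEC3F the shares were 14.3%, 5.08%, 6.18% and 0%, and under pGAPDH 12.9%, 7.87%, 6.86% and 0.38%. In the enhancer read-out the TRE5GCLR share was the highest of the 4 only under pMYC, at 22 of 204 (10.8%), against 9.42% of TRE5GCCC, 7.38% of TRE5GCNC and 1.44% of TRE5NGCC elements. Under pGAPDH it was 9.64%, against 15.4%, 10.5% and 1.91% of those families. Under pAPOBEC3F 26 of 217 TRE5GCLR elements were in the top 10%, against 34 of 235 (14.5%), 8.56% and 0.877%. By construction the share over all elements is about 10%, and the other 3 families lay below it in each promoter table. The remaining families of the tables were not set beside them, so a larger share is not shown to be particular to TRE5GCLR. These shares describe the tables, and no difference between families was tested.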

How the data were processed

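K-562 barcode libraries of RNA and plasmid DNA were read at 150 bp. Fastp, limma, edgeR and the build hg38 are what the submitters' processing notes name for the authors' own steps; the barcode matching, the scaling and the versions are not given in the sources used here. The deposited tables hold a signal value per element and library. Within each column used, 100% of these signal values divided evenly by a single step (to within 0.02), and that step was taken as 1 read. The authors' deposited log2 fold changes and p-values served as a comparison, and the log2 ratios here differed from theirs by at most 0.042.

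limma 3.58.1 in R 4.3.3 (trend) was fitted to log2 of the value plus 0.5 reads over all elements of a table, with group means only. Orientation and minimal promoters were contrasts over all names with both forms or in both tables. edgeR 4.0.16 on recovered reads was an alternative, and scripts were tested on simulated data. The labels' protocols divide each replicate's cells for RNA and DNA, which pairs them; same-numbered deviations correlated at -0.0743 to 0.0280. Alternatives were a replicate block, 1 read added, at least 20 DNA reads, centring and leaving out each library. Elements were named by rank in each comparison (5 highest and 3 lowest per table, 5 orientation differences, 3 differences either way between minimal promoters and between read-outs, opposite calls). Only elements that passed the test of the comparison, with at least 20 DNA reads in each replicate, entered these ranks. Between read-outs, a call in 1 of them was enough. Members, lists and the rule were chosen with earlier results of these data known. The 3 plasmid index libraries were not used here.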

Additional observations from a re-analysis of the deposited data

Results flagged for a closer look

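In the promoter read-out the naming rule took 3 elements for opposite calls under different minimal promoters. All 3 had every replicate below 0 under pGAPDH and above 0 under another minimal promoter, which their opposite calls largely entail. TRE5GCLR0066.fwd differed by -1.58 between pGAPDH and pMYC after centring (limma, adjusted p = 1.89e-09), and by -2.20 between pGAPDH and pAPOBEC3F (limma, adjusted p = 1.44e-09). Its replicates were -0.25 and -0.19 under pGAPDH, 1.91 and 1.90 under pMYC and 2.73 and 2.58 under pAPOBEC3F. TRE5GCLR0168.rev, at -0.32 and -0.41 under pGAPDH and 2.59 and 2.59 under pAPOBEC3F, differed by -2.28 (limma, adjusted p = 2.33e-08). TRE5GCLR0187.fwd, at -0.28 and -0.11 under pGAPDH and 2.84 and 2.80 under pAPOBEC3F, differed by -2.34 (limma, adjusted p = 7.27e-08). The sign of a value depends on the zero point of its table, and the differences are relative to the median shared element. The cause was not tested.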

How the results depend on the processing

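Of 930 recomputed values of 108 named results, 871 kept their direction and their side of the threshold, 59 kept their direction and no longer passed the test, and 0 were reversed. The named results were picked as called extremes with at least 20 DNA reads in each replicate. The 108 values at that read threshold could therefore hardly change, and few reversals follow from picking extremes. All 24 counts stayed within 1.5 times with 1 read added, with at least 20 DNA reads in each replicate, and where they applied with the authors' deposited calls and without centring. The counts between minimal promoters are totals of both directions. Without centring their split moved towards lower under pGAPDH, as given above, so the direction of these calls depends on the centring. Of the named results, 25 were the same without centring and 5 no longer passed the test. Counts of lower elements moved with the zero point: centring gave 52, 27, 63 and 16 for pMYC promoter, pMYC enhancer, pAPOBEC3F promoter and pAPOBEC3F enhancer (28, 6, 31 and 9 otherwise), and edgeR, with its own scaling, gave 63, 35, 74 and 21. The edgeR counts of higher elements were 103, 61, 111 and 65 in the same order, and under pGAPDH edgeR called 144 higher and 65 lower as promoters and 80 higher and 29 lower as enhancers. Leaving out 1 library gave 17 to 39, 0 to 13, 19 to 44 and 2 to 27 for these 4 counts, and for pGAPDH enhancer 14 to 27 lower and 42 to 74 higher, and for pAPOBEC3F enhancer 47 to 93 higher. Orientation totals in the enhancer read-out ranged from 4 to 20 (pMYC), 1 to 24 (pGAPDH) and 1 to 33 (pAPOBEC3F). Totals that differed between minimal promoters ranged from 44 to 129 (pAPOBEC3F and pMYC, promoter), 26 to 75 (pGAPDH and pMYC, enhancer), 0 to 23 (pAPOBEC3F and pMYC, enhancer) and 10 to 97 (pGAPDH and pAPOBEC3F, enhancer). Each of these fits leaves a single library in a group, and the cause of the shifts was not tested. The pAPOBEC3F enhancer read-out had the fewest RNA reads, at a median of 50 and 53 per TRE5GCLR element.

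With the replicate block, all 24 counts stayed within 1.5 times, 7 were equal and the largest difference was 5 (19 against 24 numbers for orientation in the pGAPDH enhancer read-out). The block ended the call of TRE5GCLR0125 and TRE5GCLR0168 in that comparison, with adjusted p of 0.0524 and 0.0581 in limma, and changed no other named call.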
